A study of Mus musculus with 2 samples.

Results

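The 32 genes described here encode the enzymes, transporters and regulators through which cells break down glucose by glycolysis and by the pentose phosphate pathway. They were taken as a named list of genes from the GENCODE vM21 annotation of the mouse genome (GRCm38, mm10). All 32 had an assembled locus of their own in both libraries, among 13464 genes that passed the same filter on low values. RNA came from wild-type (WT) mouse bone marrow cells cultured with macrophage colony-stimulating factor (M-CSF, 20 ng/mL) alone, named M, or with M-CSF and receptor activator of NF-κB ligand (RANKL, 100 ng/mL), named MR. RANKL is the cytokine that turns precursors of the macrophage lineage into osteoclasts, the multinucleated cells that resorb bone. Both cultures began with 2 days of M-CSF. The labels give 2 days of RANKL after that and the culture method gives 3, and neither the age nor the number of the mice is given. Each condition had 1 library, so that no difference between them has a replicate check and no test was made.

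Glycolysis splits glucose into pyruvate and yields ATP without oxygen, and lactate dehydrogenase then converts pyruvate to lactate or back. The pentose phosphate pathway branches off after the hexokinase step. Its oxidative arm makes NADPH, and its non-oxidative arm returns sugar phosphates to glycolysis. Osteoclasts are rich in mitochondria, and glycolytic enzymes are known to bind the V-ATPase that acidifies the resorption pit.

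Levels are given as TPM (a level per transcript length that has the same total in each library and can be compared between genes), and differences as the log2 ratio of MR to M after adding 1 to each TPM. The tested genes are those that have their own assembled locus and reach a TPM of 1 in either library, and the lists of other genes below also keep genes whose locus covers a further gene. A gene is called higher or lower in MR when its log2 ratio is above 1 or below -1. The aligned bases were 3.63 Gb in M and 2.98 Gb in MR. All 10 osteoclast markers were above 1, among them Acp5 (51.9 TPM in M and 4947 in MR) and Ctsk (53.1 and 12867). Of 6 macrophage markers, 3 were below -1, and their summed level was 20123 TPM in M and 7767 in MR, or 4088 and 3233 without Lyz2, the most abundant of them, whose locus covers a further gene. Summed over each list, 8 neutrophil markers were at 1201 TPM in M and 815 in MR. The 14 genes of cycling cells were at 892 and 358 TPM (373 and 237 without Pcna). Of these 14, 3 had a positive ratio, none was above 1 and 4 were below -1. The 6 erythroid markers were at 6.41 and 3.27 TPM, with 3 of them at 0. The 6 lymphoid markers were at 13.1 and 8.50 TPM, with Cd3e and Cd3g at 0, and 5 stromal markers at 18.5 and 33.5. The part of these cells in the values below was not tested, and in bulk RNA a change in the share of a cell type and a change in the RNA per cell cannot be told apart.

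The summed level of the list was higher in MR, while its members moved in both directions. The largest differences in TPM were those of Aldoa (1243 in M and 2463 in MR) and Eno1 (305 and 971). The summed level of the 32 genes was 6664 TPM in M and 9736 TPM in MR, a ratio of 1.46. This was 0.666% of all TPM in M and 0.974% in MR. Of the 32 genes, 8 were above a log2 ratio of 1 (25%), where 21.2% of all genes tested were, and 4 were below -1 (12.5%), where 13.3% of all genes tested were. The shares past the threshold were thus near those of all genes tested, which include genes with a locus in only 1 library. All 32 members had a locus in both. Of the 11717 genes with an unshared locus in both libraries, 15.3% were above 1 and 9.41% below -1, lower than the shares of the members. The median log2 ratio of the members was 0.34, beside 0.21 over all genes tested, and the ratios ran from -2.31 for Pfkfb3 to 4.65 for Ldhb. The ratio was positive in 22 of the 32 members (68.8%), where 59.5% of all genes tested were positive, and negative in 10.

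The upstream sequences of the genes with the largest ratios were examined for the short motifs that hypoxia-inducible factor (HIF), a known activator of glycolytic genes, can bind. The 2 sequences below, from RefSeq (GRCm38.p6), are those of the glycolytic genes with the largest ratio in the list, Ldhb, and with the lowest ratio among the sugar transporters, Slc2a6. Each holds the 250 bases before the start on the strand of the gene, 5′ to 3′, and capitals mark ACGTG or GCGTG on either strand, so that CACGT or CACGC is the same motif on the other strand. The Ldhb window is chr6:142507958-142508207 (minus strand) and the Slc2a6 window is chr2:27027999-27028248 (minus strand). Neither holds an annotated exon base.
Ldhb: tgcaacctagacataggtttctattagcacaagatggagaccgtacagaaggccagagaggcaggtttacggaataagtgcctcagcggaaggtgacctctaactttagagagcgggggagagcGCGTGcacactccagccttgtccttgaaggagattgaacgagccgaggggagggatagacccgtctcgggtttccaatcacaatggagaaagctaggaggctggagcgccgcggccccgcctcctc
Slc2a6: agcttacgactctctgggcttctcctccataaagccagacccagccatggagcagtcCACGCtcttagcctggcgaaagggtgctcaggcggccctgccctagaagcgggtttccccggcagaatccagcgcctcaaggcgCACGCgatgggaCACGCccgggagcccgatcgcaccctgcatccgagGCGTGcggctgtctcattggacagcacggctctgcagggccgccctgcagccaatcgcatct

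Ldhb, which is far higher in MR, has 1 such motif, starting 126 bases before the start, and Slc2a6, which is lower in MR, has 4, starting 193, 109, 97 and 62 bases before it. The windows of Aldoc and Pfkfb3 have 1 motif each, 50 and 60 bases before the start, and their letters are not shown because 105 and 148 of their bases are annotated as exon. Of the 32 genes, 31 matched a RefSeq window, and Slc2a3 did not. The motif was in 26 of these 31 windows (83.9%), in 38.6% of all 32851 windows and in 54.2% of the 12553 windows of tested genes. In 4980 windows of tested genes with a GC content between 55.4% and 66.4%, the quartiles of the members, it was in 60.8%. The members themselves were not limited to this range. Each member also had 1 window, that nearest its assembled 5′ end, whereas the other percentages count every RefSeq window, so that the shares are not strictly alike. Among the members it was in 7 of 8 windows of genes above 1, in 4 of 4 of those below -1 and in 15 of 19 of those in between. The palindrome CACGTG, which contains ACGTG and is the E-box of Myc and related factors, was in 3 member windows (Ldha, Slc16a1 and Hif1a, 9.68%), in 6.02% of all windows and in 8.13% of those of tested genes. A match is a description of letters and not of binding.

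**Figure D1:**
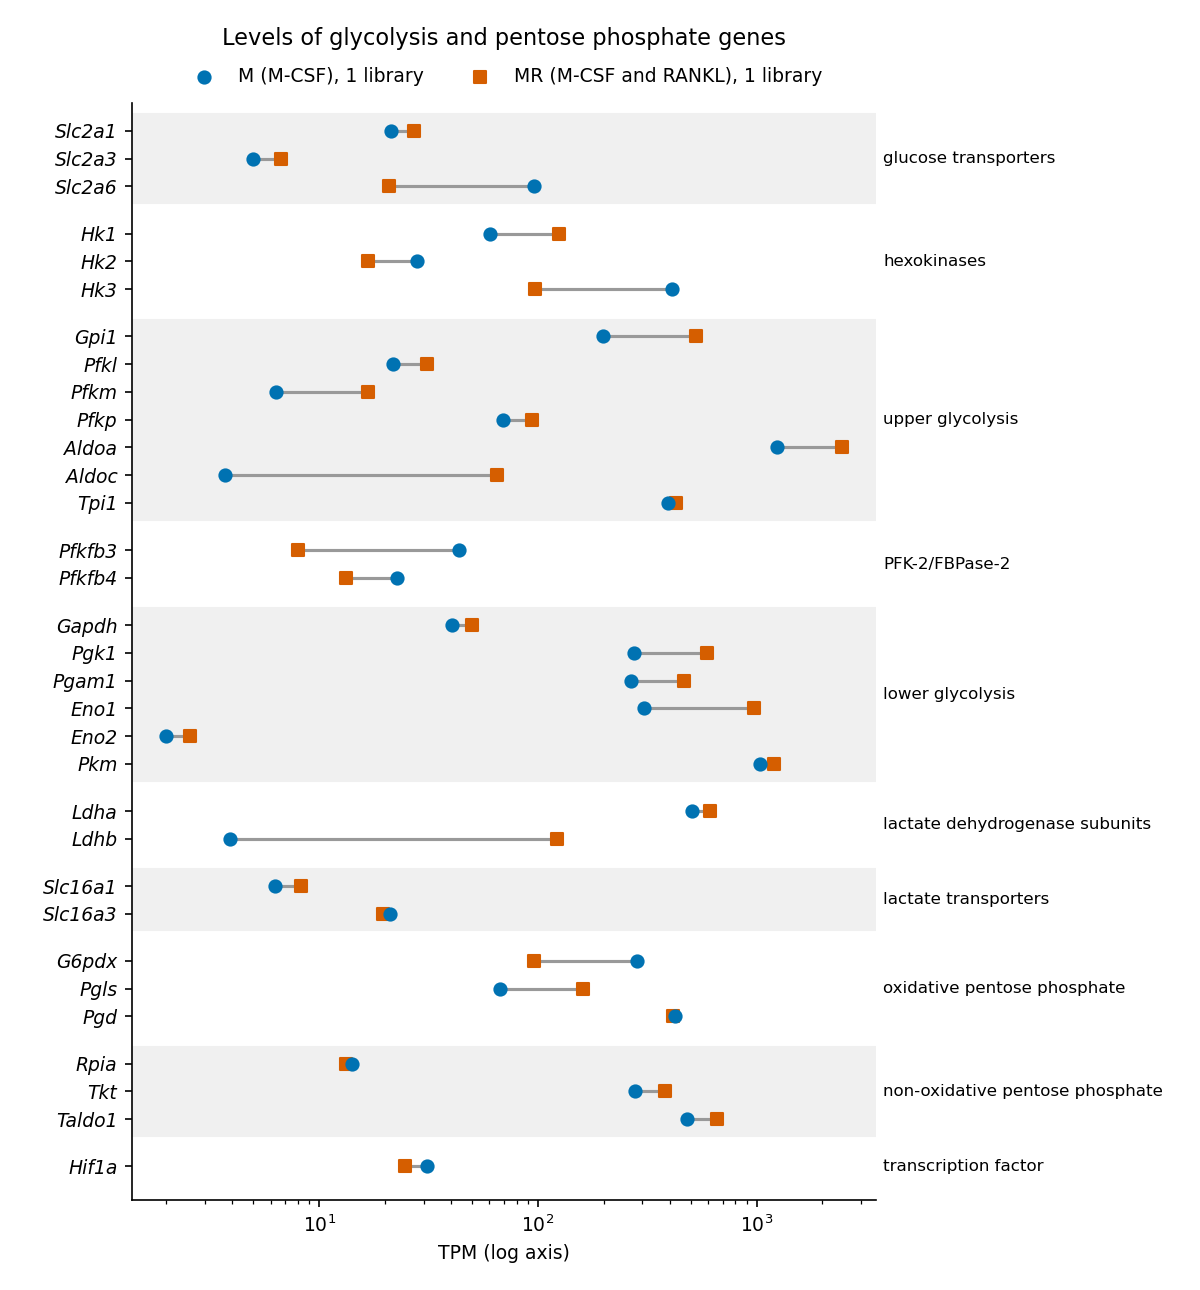
Level of each of the 32 genes in M (blue circles) and MR (orange squares), in TPM on a log axis, grouped by step of the pathway, with 1 library per condition and a grey line joining the 2 values of a gene. The longest lines are those of Ldhb (3.90 to 122 TPM) and Aldoc (3.71 to 65.1 TPM), both rightward, and those of Pfkfb3 (43.5 to 7.95 TPM), Slc2a6 (96.1 to 20.9 TPM) and Hk3 (409 to 96.7 TPM), all leftward.

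The summed levels of the glucose transporters and of the hexokinases on the list were both lower in MR, and the most abundant gene of each family was a different one in the 2 libraries. Slc2a6, a glucose transporter of the GLUT family known from myeloid cells (chr2:27021363-27027998, minus strand), was at 96.1 TPM in M and 20.9 TPM in MR, a log2 ratio of -2.15 and 4.61 times lower in MR (95% counting interval 3.93 to 5.41). This interval, like the others here, was estimated from FPKM and transcript length and covers counting error only. Slc2a1, the widely used transporter GLUT1, was at 21.3 TPM in M and 27.2 TPM in MR, a log2 ratio of 0.34. Slc2a3, the high-affinity transporter GLUT3, was low in both, at 4.97 TPM in M and 6.66 TPM in MR. Slc2a6 thus made up 78.5% of the summed level of these transporters in M and 38.1% in MR, while Slc2a1 made up 17.4% and 49.7%. The summed level of the 3 genes was 122 TPM in M and 54.7 TPM in MR.

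Hexokinases phosphorylate glucose and trap it in the cell. Hk3, the isoenzyme of myeloid cells (chr13:55005985-55021385, minus strand), was at 409 TPM in M and 96.7 TPM in MR. Its log2 ratio of -2.07 made it 4.23 times lower in MR (3.98 to 4.50). Hk1, the isoenzyme that most tissues have (chr10:62268855-62379908, minus strand), went the other way, from 60.5 TPM in M to 124.4 TPM in MR. At a log2 ratio of 1.03 (counting interval 0.92 to 1.14) it lay close to the threshold, and 4 of the alternative settings put it below. Hk2, the inducible isoenzyme, was at 28.1 TPM in M and 16.8 TPM in MR (log2 ratio -0.71). Hk3 exceeded Hk1 by 6.77 times in M, whereas in MR it was 0.777 times Hk1. The share of Hk3 in the summed hexokinase level was 82.2% in M and 40.6% in MR, and that of Hk1 was 12.2% and 52.3%. All 3 together were at 498 TPM in M and 238 TPM in MR, so that the summed hexokinase level was 2.09 times lower in MR.

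From glucose phosphate to the triose phosphates, all 7 genes had a positive ratio, except that median-of-ratios scaling put Tpi1 at -0.07. Gpi1, the isomerase that forms fructose phosphate (chr7:34201330-34230336, minus strand), was at 199 TPM in M and 530 TPM in MR, a log2 ratio of 1.41 and a fold of 2.66 (2.55 to 2.77). Aldoa, the main aldolase, which cleaves the fructose bisphosphate, was the most abundant of the 32 genes in both, with 1243 TPM in M and 2463 TPM in MR. Its log2 ratio of 0.99 lay just under the threshold. Aldoc, the aldolase best known from brain (chr11:78322968-78327781, plus strand), was at 3.71 TPM in M and 65.1 TPM in MR, a log2 ratio of 3.81 and a fold of 17.5 (12.5 to 24.7). Although this was the largest fold of the upper pathway, Aldoc was only 0.298% of the aldolase level in M and 2.58% in MR. Tpi1, which interconverts the triose phosphates, was nearly level at 394 TPM in M and 429 TPM in MR (log2 ratio 0.12).

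Phosphofructokinase commits sugar to glycolysis and is built from the subunits Pfkl, Pfkm and Pfkp, named after liver, muscle and platelets. Pfkp was the most abundant of them in both libraries, at 69.2 TPM in M and 93.8 TPM in MR (log2 ratio 0.43). Pfkl was at 21.8 TPM in M and 31.2 TPM in MR (log2 ratio 0.50). Pfkm was at 6.35 TPM in M and 16.7 TPM in MR, and it alone of the 3 was above the threshold, with a log2 ratio of 1.27 (0.94 to 1.59), so that the counting interval reached below 1. The subunit shares differed little, with Pfkp at 71.1% in M and 66.2% in MR and Pfkm at 6.52% and 11.8%.

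Pfkfb3 and Pfkfb4 encode bifunctional enzymes that make and remove the strongest activator of phosphofructokinase, and both were lower in MR by TPM, Pfkfb4 not by listed coverage. Pfkfb2, a related gene outside the list, went the other way and is given with the other genes around the pathway. Pfkfb3, the form with the highest kinase activity (chr2:11471433-11554077, minus strand), was at 43.5 TPM in M and 7.95 TPM in MR. Its log2 ratio of -2.31 was the lowest of the list, 5.47 times lower in MR (4.09 to 7.30), and only 2.55% of all genes tested had a lower ratio. Pfkfb4, a related form, was at 22.6 TPM in M and 13.3 TPM in MR (log2 ratio -0.72). For Pfkfb4 the coverage listed in the tables was 16.7% of what its FPKM corresponds to in M and 29.7% in MR, and by the listed coverage its ratio was near 0. Summed, the pair was at 66.0 TPM in M and 21.2 TPM in MR.

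**Figure D2:**
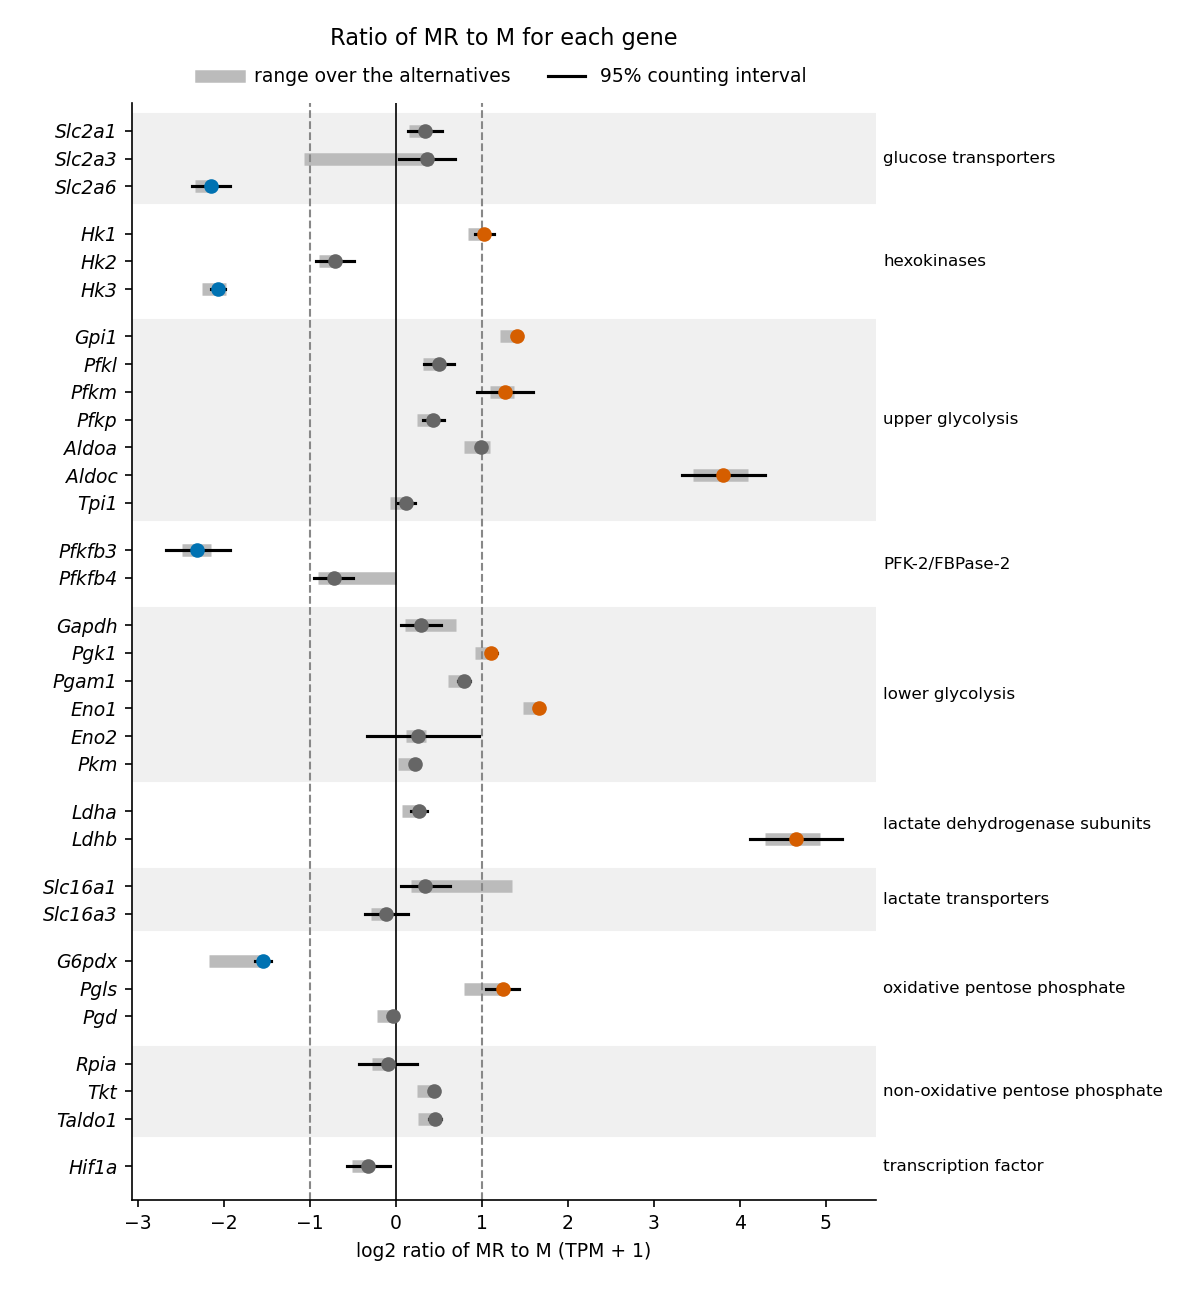
Log2 ratio of MR to M for each gene (1 added to each TPM), with the 95% counting interval as a black line and the range over the processing alternatives as a grey bar. Dashed lines mark -1 and 1, and orange and blue points are the 8 genes above 1 and the 4 genes below -1. The intervals of Ldhb and Aldoc lie furthest from 0, and the widest grey bar is that of Slc2a3, which crosses 0.

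In the lower part of glycolysis, all 6 genes had a positive ratio. Eno1, the common enolase (chr4:150236721-150248879, plus strand), was at 305 TPM in M and 971 TPM in MR, a log2 ratio of 1.67 and a fold of 3.18 (3.05 to 3.31). Pgk1, which makes the first ATP of the pathway (chrX:106187100-106203699, plus strand), was at 275 TPM in M and 594 TPM in MR (log2 ratio 1.11, and 0.92 with median-of-ratios scaling). Pgam1, the mutase between them, was at 267 TPM in M and 464 TPM in MR (log2 ratio 0.79). These genes share sequence with processed copies elsewhere in the genome. Of the stretches of 150 bases in their transcripts, 49.0% in Eno1, 66.1% in Pgk1 and 37.9% in Pgam1 also occur in another annotated gene, so that their levels are uncertain where reads could be placed at either.

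Pkm, the pyruvate kinase that makes the last ATP, was high and nearly level, at 1035 TPM in M and 1207 TPM in MR (log2 ratio 0.22). Pkm exceeded Eno1 by 3.39 times in M and by 1.24 times in MR. Eno2, the neuronal enolase, was close to the limit of detection, at 1.99 TPM in M and 2.55 TPM in MR, and its counting interval of -0.34 to 0.96 included 0. Gapdh, the dehydrogenase of the triose phosphate often used as a reference gene, was assembled in 2 fragments in M and 3 in MR, whose sum was 40.4 TPM in M and 49.8 TPM in MR (log2 ratio 0.29). A locus with 63 of its bases in Gapdh exons gave 16.9 TPM of this sum in M and 8.08 TPM in MR, and with the longest fragment only the log2 ratio was 0.70. The longest fragment (chr6:125161858-125163646 in M) held 43.3% of the exon bases of the gene, and 74.0% of the stretches of 150 bases in its transcript also occur in other genes, 49 of them. The Gapdh level is therefore not a measure of the whole transcript, and the summed level of the pathway lacks what was not assembled.

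The end of the pathway held the largest ratio of the list. Lactate dehydrogenase is a tetramer of the products of Ldha and Ldhb, of which the former is associated with lactate production and the latter with its use in oxidative tissues. Ldhb (chr6:142490249-142507957, minus strand) was at 3.90 TPM in M and 122 TPM in MR. This is a log2 ratio of 4.65 (4.12 to 5.19) and a fold of 31.3 (21.5 to 45.6), and 99.4% of all genes tested had a lower ratio. The estimated read pairs behind it were 28 in M and 704 in MR. Ldha was at 506 TPM in M and 609 TPM in MR (log2 ratio 0.27) and remained the more abundant subunit in both libraries. The level of Ldha was 129.8 times that of Ldhb in M and 4.99 times in MR. Ldhb thus made up 0.764% of the summed subunit level in M and 16.7% in MR (95% Wilson interval 15.3% to 18.2%). The 2 lactate transporters on the list were low, with Slc16a3 (MCT4) at 21.1 TPM in M and 19.5 TPM in MR and Slc16a1 (MCT1) at 6.29 TPM in M and 8.24 TPM in MR. Their sum was 27.4 TPM in M and 27.7 TPM in MR, and it leaves out Slc16a7 (MCT2), which was higher than either in MR, at 17.0 TPM in M and 57.1 TPM in MR.

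**Figure D3:**
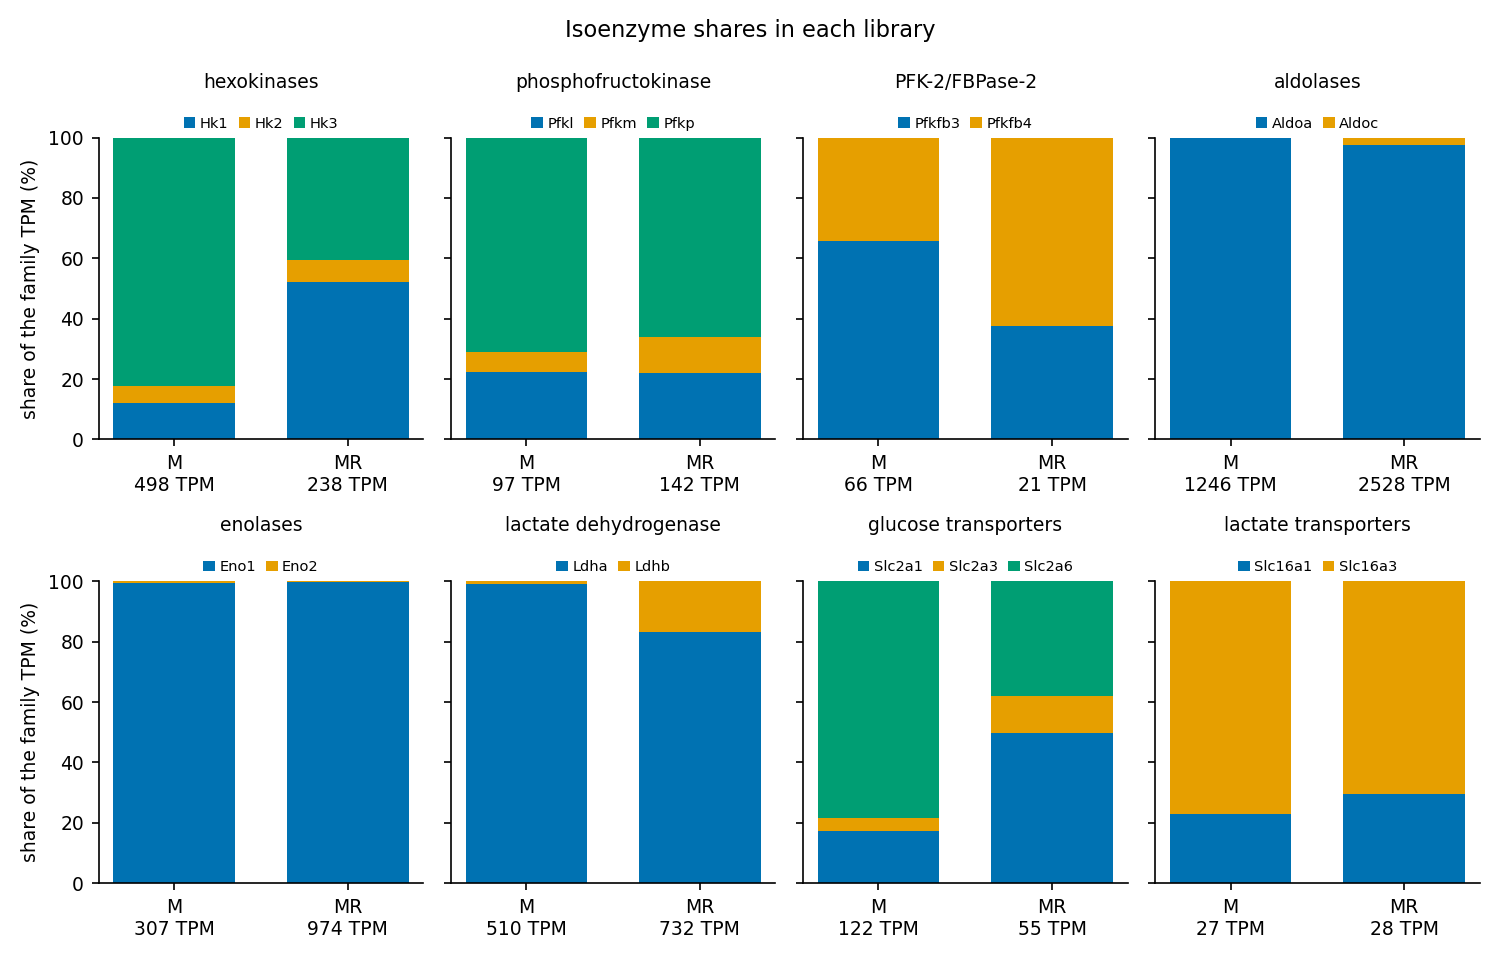
Share of each isoenzyme or subunit in the summed TPM of its family, in percent, in M (left bar) and MR (right bar), with the summed TPM under each bar and 1 library per condition. Hk3 and Slc2a6 hold most of their families in M (82.2% and 78.5%) and less than Hk1 and Slc2a1 in MR (40.6% and 38.1%), and Ldhb is visible in MR (16.7%) and hardly in M (0.764%).

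The 3 genes of the oxidative arm of the pentose phosphate pathway, which catalyse successive steps, did not move together. G6pdx, the enzyme that sets the rate of the arm and makes the first NADPH (chrX:74409483-74429194, minus strand), was at 283 TPM in M and 96.1 TPM in MR. It had a log2 ratio of -1.55 and was 2.95 times lower in MR (2.76 to 3.15). By listed coverage the log2 ratio was -2.17, outside this interval. Pgls, the lactonase of the next step (chr8:71592176-71601092, plus strand), was at 67.2 TPM in M and 160.0 TPM in MR, a log2 ratio of 1.24 and a fold of 2.38 (2.09 to 2.72). By listed coverage, which in MR was 76.7% of what its FPKM corresponds to, the log2 ratio was 0.79 and below the threshold. Pgd, which makes the last NADPH of the arm, was level at 423 TPM in M and 413 TPM in MR (log2 ratio -0.03). The level of G6pdx was 4.22 times that of Pgls in M and 0.601 times in MR, and Pgd exceeded G6pdx by 1.49 times in M and by 4.30 times in MR.

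The non-oxidative arm differed less. Taldo1, the transaldolase, was at 482 TPM in M and 659 TPM in MR (log2 ratio 0.45). Tkt, the transketolase, was at 279 TPM in M and 379 TPM in MR (log2 ratio 0.44). Rpia, the ribose phosphate isomerase, was at 14.2 TPM in M and 13.2 TPM in MR (log2 ratio -0.09), and its counting interval of -0.43 to 0.24 included 0. Summed by arm, the oxidative genes were at 774 TPM in M and 670 TPM in MR and the non-oxidative genes at 775 TPM in M and 1052 TPM in MR. Hif1a, the oxygen-regulated subunit of HIF, was at 31.2 TPM in M and 24.7 TPM in MR (log2 ratio -0.32). HIF is controlled mainly through the stability of this protein, which RNA does not show.

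The outer ends of the longest assembled locus of each gene were compared between the cultures. Where that locus is partial, they are not transcript ends. The Gapdh locus, counted in the 26 below, began 2821 bases downstream of the outermost annotated start in both libraries. The Eno2 locus began 5771 bases downstream in M and 6491 in MR. In 26 of the 32 genes the 5′ ends in M and MR lay within 50 bases of each other, Ldhb (33 bases), Aldoc (24), Pfkfb3 (1), Slc2a6 (15) and Hk3 (2) among them. The 3′ ends lay within 50 bases in 20 of the 32, and were further apart in Ldhb (154 bases), Aldoc (213) and Pfkfb3 (347). The Hk1 loci began 39742 bases in M and 39719 bases in MR downstream of the outermost annotated start, and those of Pfkm 15896 and 15893 bases downstream, so that in both cultures the assembled 5′ end was an internal one. The 5′ end of the G6pdx locus lay at position 74430657 in MR, upstream of the annotated start at 74429194, and at 74428977 in M, downstream of it. The listed coverage of G6pdx in MR was 63.3% of what its FPKM corresponds to. Slc2a3 was assembled as 1 locus in M and 3 in MR, and Slc16a1 as 2 in M and 1 in MR, and their ratios depended on whether the sum or the longest locus was used.

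Other genes around the pathway were compared from a list of 50, of which 33 passed the filter on low values. Of these 33, 11 were above 1 and 1 was below -1 (21.2% and 13.3% of all genes tested). Their median log2 ratio was 0.57, beside 0.21 over all genes tested. Pyruvate dehydrogenase kinases, which inhibit the conversion of pyruvate to acetyl-CoA in mitochondria, were among the higher ones, with Pdk1 at 7.98 TPM in M and 33.4 TPM in MR, Pdk2 at 5.57 and 25.7 TPM, and Pdk3 at 7.71 and 53.0 TPM. Mpc2, a subunit of the carrier that takes pyruvate into mitochondria, was at 58.6 TPM in M and 233 TPM in MR. Higher in MR were also the lactate transporter Slc16a7, Galm, which interconverts the anomers of sugars, at 11.2 and 53.1 TPM, and Ldhd, the dehydrogenase of D-lactate, at 1.91 and 13.6 TPM. Pfkfb2, another bifunctional enzyme, whose locus also covered another gene, was at 8.65 TPM in M and 22.1 TPM in MR, opposite in direction to Pfkfb3. The lower one was Slc2a9, a transporter of urate and sugars, at 17.5 TPM in M and 3.73 TPM in MR.

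Genes of glycogen metabolism numbered 18 after the filter, of 19 listed. Of these, 6 were above 1 and 1 was below -1 (21.2% and 13.3% of all genes tested), with a median of 0.62. Gys1, the glycogen synthase of most tissues, was at 5.59 TPM in M and 32.6 TPM in MR, whereas Gyg, the protein that primes glycogen, was at 210 TPM in M and 65.6 TPM in MR. The mutase Pgm2 was at 18.3 and 51.3 TPM.

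Of the genes of the HIF pathway outside glycolysis, 25 passed the filter, of which 9 were above 1 and 5 below -1 (21.2% and 13.3% of all genes tested), with a median of 0.34. The higher ones that reached a TPM of 10 were Vegfa, an angiogenic factor (7.43 TPM in M and 18.2 in MR), Pdgfb, a growth factor (10.6 and 187), Bnip3, a mitophagy receptor (17.5 and 38.3), Kdm3a, a histone demethylase (11.5 and 27.6), Mxi1, a Myc antagonist (8.73 and 27.4), Narf (11.7 and 27.0) and Egln2, a prolyl hydroxylase that marks HIF for degradation (34.1 and 114), whose locus also covered another gene. The lower ones were Plin2, a lipid droplet protein (1060 TPM in M and 381 in MR), P4ha1, a collagen prolyl hydroxylase (79.8 and 35.0), Wsb1 (91.0 and 38.2) and Epas1, the HIF subunit also named HIF-2α (12.3 and 4.66).

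The Krebs cycle, which oxidises the carbon of pyruvate in mitochondria, together with the pyruvate dehydrogenase complex that feeds it, was set beside glycolysis as a comparison. Of the 32 glycolysis and pentose phosphate genes, 8 were above 1 and 4 below -1, and of all genes tested 21.2% and 13.3%. All 22 genes of the Krebs cycle and the pyruvate dehydrogenase complex passed the filter, 20 were above 1 and none was below -1. The median log2 ratio was 1.90, beside 0.34 for glycolysis and the pentose phosphate pathway. The summed level of these genes was 1856 TPM in M and 6879 TPM in MR, a ratio of 3.71, with Mdh2 (167 and 891 TPM) and Sdha (174 and 580 TPM) among the abundant ones. Without Pdha1, Pdhb, Dlat and Pdhx of the pyruvate dehydrogenase complex, 16 of 18 were above 1 and the median was 1.80. This comparison was added after the data were seen, and Dld, also a subunit of that complex, was kept among the 18. No test of this difference was possible with 1 library per condition. The lists also differ in make-up, since that of the 32 genes holds transporters, alternative isoenzymes and the transcription factor gene Hif1a as well.

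**Figure D4:**
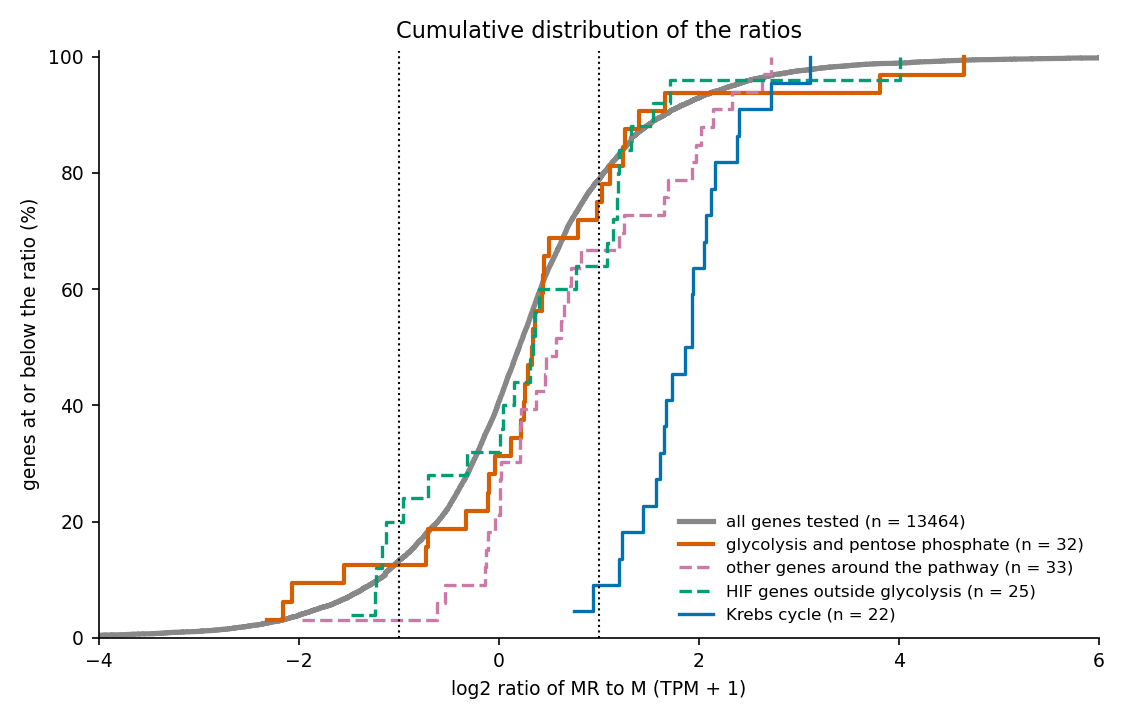
Cumulative percent of genes at or below each log2 ratio of MR to M (1 added to each TPM) for all 13464 genes tested (grey), the 32 glycolysis and pentose phosphate genes (orange), the other genes around the pathway (33, dashed pink), the HIF genes (25, dashed green) and the Krebs cycle with the pyruvate dehydrogenase complex (22, blue). The orange line runs close to the grey one except at its ends, whereas the blue line lies to the right of 1 for 20 of 22 genes, and dotted lines mark -1 and 1.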

How the data were processed

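RNA of 1 M library and 1 MR library was sequenced as paired reads of 150 bases. The authors removed adaptors with Trim Galore, mapped the reads to mm10 with HISAT2 and ran StringTie with the GENCODE vM27 annotation. The deposited tables hold for each entry a coverage signal (read depth per base, not normalized), an FPKM (per transcript length and sequencing depth) and a TPM, which the authors scaled over the assembled loci alone. Entries with gene names have GRCm39 positions and were not used.

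Each of the 19422 loci assembled in M and 19922 in MR was assigned, where its strand allowed, to whichever GENCODE vM21 gene it overlapped by most exon bases (50 or more), which placed 95.4% and 96.9% of the TPM, and TPM was summed per gene. Loci that also held 50% or more of the exon bases of a further coding gene counted as shared. Log2 ratios used a pseudocount of 1 and genes that reached a TPM of 1 in either library. Aligned bases came from the modal quotient of coverage and FPKM. Read pairs of 300 bases were estimated from FPKM and the shortest coding transcript, and their 95% Wilson intervals cover counting error only, not differences between cultures. The assignment was tested on simulated data with 1 nearly full-length locus per gene, which could not show errors from split, merged or partial loci. Genes outside the list were named where TPM reached 10 in either library and the log2 ratio was past 1 or -1, with up to 3 of the most abundant Krebs cycle genes. Some genes that met this rule are not reported here. The members, lists and settings were chosen with earlier results of these data known. Sums without Lyz2 or Pcna and the Krebs cycle list without 4 of the pyruvate dehydrogenase genes were added after the data were seen. Upstream windows were from RefSeq (GRCm38.p6). The scripts ran on Python 3.11.15 (scipy 1.17.1, matplotlib 3.10.9, pandas 2.3.3, numpy 2.4.6).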

Additional observations from a re-analysis of the deposited data

How the results depend on the processing

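With 1 library per condition, differences between cultures of the same kind are unknown, no replicate could be left out, and depth limits genes such as Eno2, with 18 read pairs in M and 19 in MR. No paired analysis was possible because each condition has 1 library and no result comes from a test. Of 475 values recomputed under 12 alternatives, 408 stayed within their counting interval or, for the median, within its order-statistic interval and, for counts of genes, within 1.5 times, and no member past the threshold changed sign. Many of these values could not change, so that 408 is not a measure of robustness. Filters on low values leave the ratio of a kept gene as it was, and scaling leaves shares within a library as they were. The longest locus is also the only one in the 28 members with 1 locus in each library.

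The median log2 ratio of the members lay between 0.16 (median-of-ratios scaling) and 0.39 (longest locus only), beside 0.34 as reported. The 8 members above 1 became 2 of 32 at a log2 threshold of 2, and the 4 below -1 became 3 of 32. Of all genes tested, 7.12% were higher and 3.87% lower in MR by this threshold. The summed ratio of the members, 1.46, was 1.40 with FPKM, 1.42 with coverage per aligned Gb and 1.36 after removal of mitochondrial genes and the 20 with the highest TPM. Of all genes, 2860 above 1 and 1784 below -1 became 1601 and 983 where TPM had to reach 10, 1795 and 1102 where both libraries had to have an unshared locus, and 958 and 521 at a threshold of 2. Median-of-ratios scaling moved the median of all genes from 0.21 to 0.03 and the share of higher genes among those past the threshold from 61.6% to 53.0%.

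Across the alternatives, 26 members stayed on the same side of the threshold and 29 kept their sign. Hk1 fell below 1 in 4 settings (lowest 0.84), Pgk1 to 0.92 with median-of-ratios scaling and Pgls to 0.79 with coverage, while Aldoa reached 1.09 with coverage. With the longest locus only, Slc2a3 was at -1.07 and Slc16a1 at 1.35, since their loci are split. G6pdx was at -2.17 with coverage and Gapdh at 0.70 with the longest locus only. Tpi1 was at -0.07 with median-of-ratios scaling and Pfkfb4 at 0.0048 with coverage. By coverage, the shares were 43.8% for Hk3, 42.2% for Slc2a6 and 3.18% for Aldoc in MR, 91.2% in M and 65.3% in MR for Pfkfb3, and 44.9% in M and 35.9% in MR for Slc16a3, whose reported shares are 77.1% and 70.3%. With the longest locus only, Slc16a3 was at 89.0% in M and Eno2 at 0.158% in MR, where it was reported at 0.262% of the enolases. The reported Pfkfb3 shares are 65.8% and 37.5%, so that which of the pair was more abundant in MR depended on the unit. Except for split loci, the cause was not tested.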
